A study of Mus musculus with 18 samples.

Results

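The MAP kinase phosphatases are dual-specificity phosphatases, encoded by Dusp genes, that remove phosphate from the activation loop of mitogen-activated protein (MAP) kinases. 8 of them were chosen by name, namely Dusp1, Dusp4, Dusp5, Dusp6, Dusp7, Dusp8, Dusp10 and Dusp16, and all 8 were found among the 54279 rows of both deposited tables and passed the filter on low counts in both. They were measured by RNA sequencing in mouse oligodendrocyte progenitor cells (OPCs), which divide and give rise to the myelin-forming cells of the brain. They had been derived from epiblast stem cells and cultured in the presence of Fgf2 and Pdgfa. The cells carried a CRISPR edit of Vhl, whose protein marks hypoxia-inducible factor (HIF) for degradation, or a CRISPR control. The 6 groups were Vhl OPCs with AZD8330, Vhl OPCs with DMSO, control OPCs with AZD8330, control OPCs with DMSO, untreated Vhl OPCs and untreated control OPCs, each with 3 libraries lettered A to C. AZD8330, which inhibits MEK1 and MEK2, the kinases that activate ERK, was given at 300 nM for 14 hours, and DMSO, its solvent, for the same time. The labels give neither the number of cultures behind a group nor whether the edited cells were a clone or a pool. The p-values therefore describe the spread among these libraries, which may be technical.

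Growth factor receptors activate the kinases RAF, MEK and ERK in turn, and ERK induces several of the phosphatases that switch it off, which makes these genes both a brake on the pathway and a common readout of its activity. Dusp6 and Dusp7 encode cytoplasmic phosphatases selective for ERK. Dusp1, Dusp4 and Dusp5 encode nuclear phosphatases that are induced early after stimulation, with Dusp5 selective for ERK and Dusp1 and Dusp4 acting also on the kinases JNK and p38. Dusp8, Dusp10 and Dusp16 encode phosphatases that act mainly on JNK and p38. In OPCs, ERK signalling downstream of Fgf2 and Pdgfa is known for its part in proliferation and in the steps towards myelination.

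Libraries of the drug experiment held 12391077 to 16349676 estimated counts and untreated libraries 14594148 to 21160250. The 2 experiments were fitted separately. Under each treatment, all Vhl libraries held less Vhl transcript than all control libraries, at no less than 74.1 CPM. All 7 OPC markers were detected in both tables, with a summed level of 7936 to 8922 CPM (counts scaled to a common library total) in the drug experiment and 9779 to 12970 CPM in the untreated one, while 6 microglia markers summed to at most 1.97 CPM. The untreated A libraries stood apart from B and C: Sox10, an OPC transcription factor, was at 327.1 CPM in Vhl A and 526.9 CPM in control A, and at no more than 88.1 CPM in the other untreated libraries. Vegfa was at 38.8 CPM in untreated Vhl A, 408.4 CPM in Vhl B and 644.0 CPM in Vhl C, and at most 8.29 CPM in untreated control libraries. The edgeR common dispersion was 0.144 in the untreated experiment and 0.0161 in the drug experiment.

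The 8 genes lie on 8 chromosomes of the mouse build GRCm38 (mm10), and in GENCODE M21 all are protein coding. Dusp6 spans chr10:99263231-99267489 on the plus strand and Dusp4 chr8:34807297-34819894 on the plus strand, and no other annotated gene overlaps either of them. Dusp7 lies at chr9:106368632-106375724 on the plus strand, also without an overlapping gene. Dusp1, at chr17:26505590-26562128 on the minus strand, overlaps Ergic1 on the plus strand, which reached 66.3 to 80.8 CPM in the libraries with AZD8330 and 144.0 to 190.1 CPM in those with DMSO. Dusp5, at chr19:53529109-53542431 on the plus strand, shares 21.2% of its 31-base words with another gene and has the antisense gene AC137853.2 over it, which was listed at no more than 0.881 CPM in any library. Dusp8 (chr7:142079490-142095843, minus strand), Dusp10 (chr1:184013302-184075636, plus strand) and Dusp16 (chr6:134715468-134792625, minus strand) each overlap a gene on the opposite strand, of which 1700056E22Rik, over Dusp10, was the highest at up to 3.48 CPM. The strandedness of the libraries is not stated in the labels or notes. Reads of Dusp5, Dusp8, Dusp10 and Dusp16 therefore cannot be told apart from those of an opposite-strand partner where their exons meet. Dusp1 shares 0.0% of its 31-base words, on either strand, with the annotated transcripts of any other gene.

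RefSeq promoters on GRCm38.p6 were matched for 7 of the 8 genes, all but Dusp4. The promoters of Dusp6 and Dusp1 are shown because they are 2 of the 3 genes whose change with AZD8330 differed between Vhl and control OPCs, and those of Dusp5 and Dusp8 because they are 2 of the 3 genes that rose in Vhl OPCs with and without the inhibitor. The remaining gene of each set, Dusp7 and Dusp10, is not shown. The promoter of Dusp7 held 1 of the motifs searched, GCGTG, and that of Dusp10 none. Each stretch is read 5′ to 3′ on the gene's own strand and holds no base that GENCODE places in an exon of that gene. For Dusp8 the sequence after the RefSeq start was not found in a GENCODE transcript of the gene. Capitals mark matches, on either strand, to the motifs searched: the ETS core CGGAA, the cAMP response element TGACGTCA and its half-site TGACG, the HIF cores ACGTG and GCGTG, the AP-1 site TGANTCA and the CArG box of serum response factor. The Dusp6 stretch is chr10:99262981-99263230 (plus strand), the Dusp1 stretch chr17:26508520-26508722 (minus strand, inside the longer GENCODE gene), the Dusp5 stretch chr19:53528895-53529108 (plus strand) and the Dusp8 stretch chr7:142095285-142095534 (minus strand, also inside the longer GENCODE gene).
Dusp6: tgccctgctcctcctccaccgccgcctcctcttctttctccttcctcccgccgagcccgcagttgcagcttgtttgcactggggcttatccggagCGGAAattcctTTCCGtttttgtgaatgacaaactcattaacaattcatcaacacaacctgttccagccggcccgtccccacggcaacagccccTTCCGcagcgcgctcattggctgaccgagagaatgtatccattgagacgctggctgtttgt
Dusp1: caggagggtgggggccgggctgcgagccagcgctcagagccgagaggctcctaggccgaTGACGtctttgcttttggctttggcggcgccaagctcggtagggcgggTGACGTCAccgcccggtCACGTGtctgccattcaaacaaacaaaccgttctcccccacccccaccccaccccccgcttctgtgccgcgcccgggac
Dusp5: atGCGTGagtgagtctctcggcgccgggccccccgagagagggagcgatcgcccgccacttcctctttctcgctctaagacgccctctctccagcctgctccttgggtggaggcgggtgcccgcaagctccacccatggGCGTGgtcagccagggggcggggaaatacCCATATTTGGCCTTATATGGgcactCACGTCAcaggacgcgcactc
Dusp8: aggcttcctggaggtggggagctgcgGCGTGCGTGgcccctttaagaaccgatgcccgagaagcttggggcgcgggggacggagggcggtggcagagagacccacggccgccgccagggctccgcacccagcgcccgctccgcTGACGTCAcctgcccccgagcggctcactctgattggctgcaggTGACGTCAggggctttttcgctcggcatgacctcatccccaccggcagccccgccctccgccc

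In the 250 bases before the RefSeq start, Dusp6 held 3 ETS cores, beginning 155, 144 and 61 bases before the start, and none of the other motifs. Dusp5 held 1 ETS core, at 10 bases before the start and beyond the stretch shown, and the other 5 matched members held none. An ETS core stood in 25.2% of all 32851 RefSeq promoters of that length. Dusp1 held 1 cAMP response element, at 143 bases, and Dusp8 held 2, at 107 and 63 bases, a motif found in 1.55% of all promoters. Each full element contains the half-site TGACG on both strands, and the half-site alone stood in 17.8% of promoters. Dusp5 held 2 CArG boxes, at 82 and 72 bases, against 1.47% of promoters with at least 1. HIF cores were present as ACGTG in Dusp1 (2 matches that overlap in the letters CACGTG) and Dusp5 (1 match, which overlaps a half-site TGACG), and as GCGTG in Dusp5 (2), Dusp7 (1) and Dusp8 (2). ACGTG stood in 16.6% and GCGTG in 28.2% of all promoters, and TGANTCA, found in no member, in 6.75%. The promoter of Dusp16 held 1 TGACG and that of Dusp10 none of the motifs. A match of letters does not show that a factor binds there.

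Dusp6 was the most abundant of the 8 transcripts in the DMSO groups. Per kilobase of exon, Dusp6 stood at 122.9 ± 5.23 CPM per kb in Vhl OPCs with DMSO (SD, n = 3, as for all means that follow), ahead of Dusp7 at 19.5 ± 0.226 and Dusp16 at 7.98 ± 0.179 CPM per kb. Control OPCs with DMSO had the same first 3 genes, with 132.9 ± 3.04 CPM per kb for Dusp6, 27.6 ± 0.533 for Dusp7 and 7.33 ± 0.328 for Dusp16. There Dusp4 (4.32 ± 0.480), Dusp1 (4.23 ± 0.283) and Dusp5 (4.02 ± 0.468 CPM per kb) followed within each other's spread, and Dusp10 (2.77 ± 0.184) and Dusp8 (2.45 ± 0.255 CPM per kb) were the lowest. With AZD8330 the order changed. In Vhl OPCs with AZD8330 Dusp6 (10.5 ± 0.690) and Dusp7 (10.1 ± 0.194 CPM per kb) lay within their spread. In control OPCs with AZD8330 Dusp7 led at 17.0 ± 0.507 CPM per kb, while Dusp6 (6.68 ± 0.120) and Dusp16 (6.29 ± 0.371 CPM per kb) lay within their spread and changed places when the longest transcript was used as the length.

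Summed over the 8 genes, expression was 215.1 ± 4.62 CPM in Vhl OPCs with AZD8330 and 614.6 ± 14.1 CPM in Vhl OPCs with DMSO. In control OPCs the sum was 167.5 ± 0.722 CPM with AZD8330 and 622.1 ± 5.72 CPM with DMSO. Dusp6 made up 15.3% ± 1.18 of that sum with AZD8330 and 62.6% ± 1.25 with DMSO in Vhl OPCs, and 12.5% ± 0.269 with AZD8330 and 66.9% ± 0.968 with DMSO in control OPCs.

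**Figure D1:**
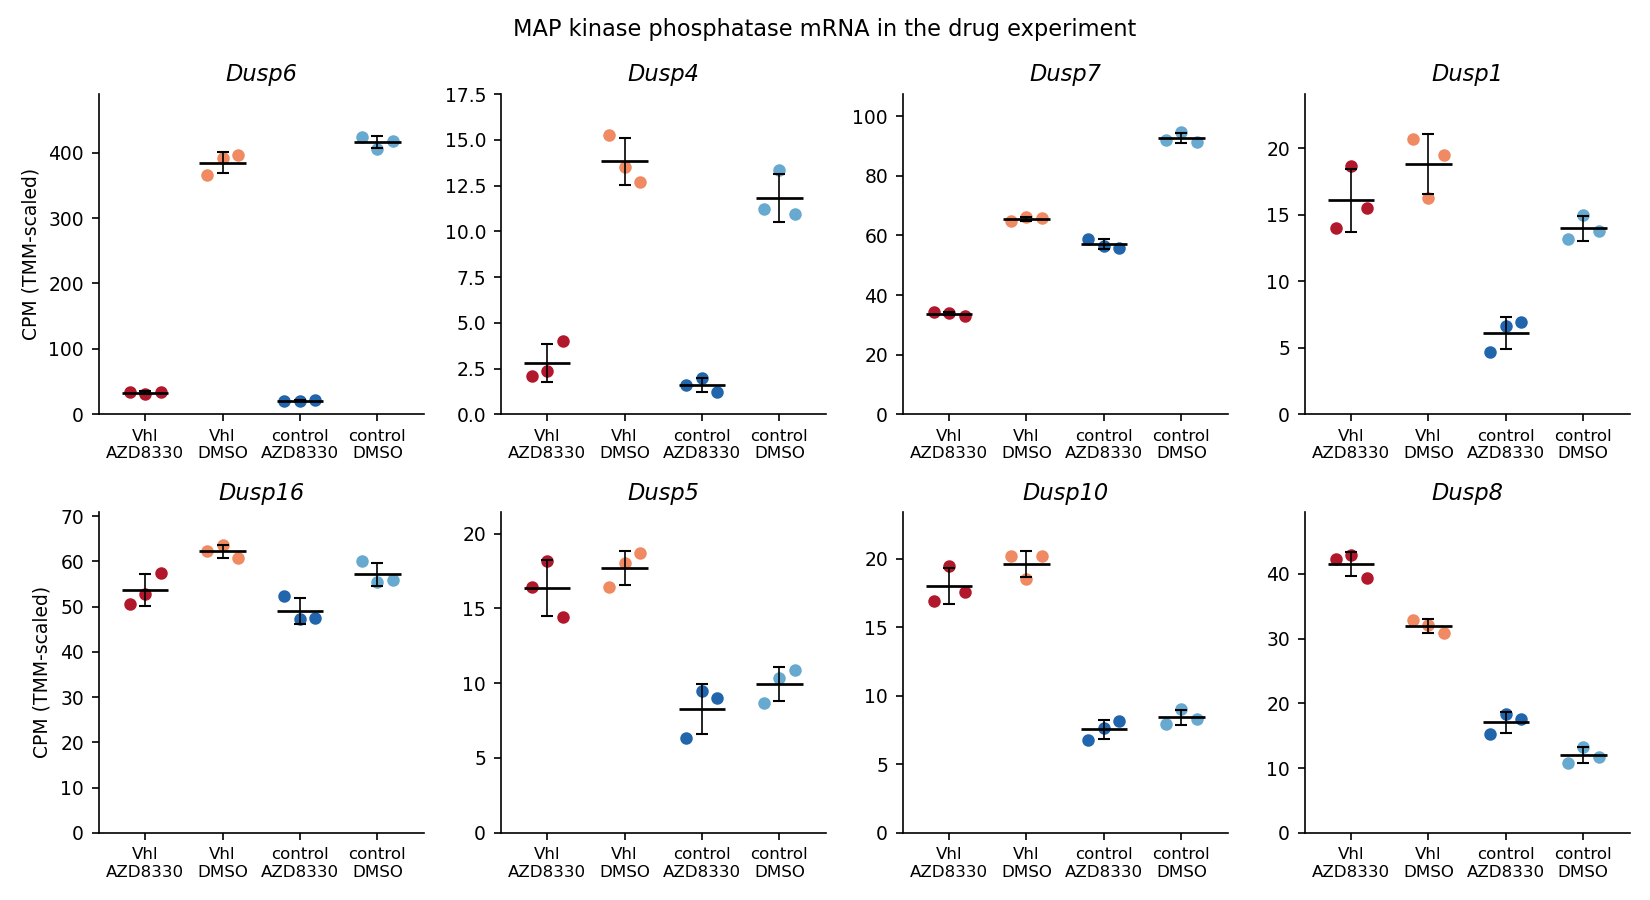
Expression of the 8 MAP kinase phosphatase genes in the drug experiment, in CPM on axes that start at 0, with 1 point per library, a line at the mean of each group of 3 and bars of 1 SD. Dusp6 lies between 366.1 and 424.6 CPM in both DMSO groups and between 20.53 and 34.7 CPM in both AZD8330 groups, while Dusp8 and Dusp10 are higher in every Vhl library than in every control library.

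The first comparison asks which phosphatase genes responded to inhibition of MEK. With AZD8330, 4 of the 8 genes fell and 1 rose in Vhl OPCs, by the quasi-likelihood test of edgeR with Benjamini-Hochberg adjustment over all 13460 genes tested (threshold 0.05, as in every count that follows). In that comparison 51.4% of all tested genes changed, 25.8% higher and 25.6% lower. In control OPCs 5 of the 8 fell and 1 rose, against 60.8% of all tested genes changed, 29.1% higher and 31.7% lower. Both counts of changed members are near these backgrounds. Within the 8 genes the falls of Dusp6 and Dusp4 were the largest in both genotypes. The median log2 change of the 8 genes was -0.22 in Vhl OPCs and -0.48 in control OPCs, beside medians of 0.03 in Vhl OPCs and -0.01 in control OPCs over all tested genes. Groups did not overlap for 5 of the 8 genes in Vhl OPCs, against 58.4% of all genes, and for 6 of 8 in control OPCs, against 66.4%.

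Dusp6, the ERK-selective cytoplasmic phosphatase, was at 33.3, 30.5 and 34.7 CPM in the Vhl libraries A, B and C with AZD8330, and at 366.1, 392.4 and 396.3 CPM with DMSO. In control OPCs it was at 20.96, 20.53 and 21.28 CPM with AZD8330, and at 424.6, 405.8 and 418.1 CPM with DMSO. Every library with the inhibitor lay far below every library with DMSO. The log2 change was -3.55 ± 0.05 (SE) in Vhl OPCs (adjusted p = 5.25e-14), which left 8.53% of the DMSO level and ranked 69 from the lowest of all tested genes. In control OPCs it was -4.31 ± 0.05 (adjusted p = 1.34e-14), which left 5.03% of the DMSO level and ranked 22 from the lowest.

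Dusp4, a nuclear phosphatase induced by ERK, was at 2.07, 2.36 and 4.01 CPM in Vhl libraries with AZD8330, and at 15.2, 13.5 and 12.7 CPM with DMSO. In control libraries it was at 1.59, 1.96 and 1.22 CPM with AZD8330, and at 11.2, 13.3 and 10.9 CPM with DMSO. The levels with AZD8330 rest on 30 to 55 estimated counts per Vhl library and 17 to 30 per control library. Dusp4 fell, with log2 changes of -2.30 ± 0.24 in Vhl OPCs (adjusted p = 3.62e-06) and -2.88 ± 0.25 in control OPCs (adjusted p = 4.44e-07), with no overlap between treatments in either genotype.

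Dusp7, the other ERK-selective cytoplasmic phosphatase, fell less far. It was at 34.3, 34.0 and 33.1 CPM in Vhl libraries with AZD8330, and at 64.7, 66.1 and 65.7 CPM with DMSO, a log2 change of -0.95 ± 0.04 (adjusted p = 1.26e-09). In control libraries it was at 58.9, 56.4 and 55.6 CPM with AZD8330, and at 91.8, 94.7 and 91.5 CPM with DMSO, a log2 change of -0.70 ± 0.04 (adjusted p = 9.09e-09). The 4 groups did not overlap: Vhl with AZD8330 was the lowest, then control with AZD8330, then Vhl with DMSO, and control with DMSO was the highest.

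Dusp1, an early-induced nuclear phosphatase of JNK, p38 and ERK, was at 14.0, 18.7 and 15.5 CPM in Vhl libraries with AZD8330, and at 20.7, 16.3 and 19.5 CPM with DMSO. These groups overlapped, and the log2 change of -0.22 ± 0.16 did not pass (adjusted p = 0.258). In control libraries Dusp1 was at 4.70, 6.67 and 6.90 CPM with AZD8330, and at 13.2, 15.0 and 13.8 CPM with DMSO, without overlap, and it fell by 1.20 ± 0.17 on the log2 scale (adjusted p = 3.36e-05). Ergic1, the gene on the opposite strand, was also lower with AZD8330 in both genotypes. The annotated transcripts of Dusp1 share 0.0% of their 31-base words with those of other genes, Ergic1 among them. The part of Ergic1 reads in the Dusp1 value was not otherwise tested.

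Among the phosphatases of JNK and p38, Dusp8 rose, Dusp16 fell slightly and Dusp10 did not pass. Dusp8 was at 42.2, 42.9 and 39.4 CPM in Vhl libraries with AZD8330, and at 32.9, 32.0 and 30.9 CPM with DMSO, a log2 change of 0.38 ± 0.09 (adjusted p = 0.00291). In control libraries it was at 15.2, 18.3 and 17.5 CPM with AZD8330, and at 10.8, 13.3 and 11.7 CPM with DMSO, a log2 change of 0.51 ± 0.10 (adjusted p = 0.000471). Treatments did not overlap in either genotype. Dusp16 ranged from 50.6 to 57.5 CPM with AZD8330 and from 60.8 to 63.6 CPM with DMSO in Vhl OPCs, a log2 change of -0.21 ± 0.06 (adjusted p = 0.0107). In control OPCs it ranged from 47.3 to 52.4 CPM with AZD8330 and from 55.4 to 60.1 CPM with DMSO, a log2 change of -0.22 ± 0.06 (adjusted p = 0.00791). The call in control OPCs was lost without control AZD8330 library B (adjusted p = 0.0587) or C (adjusted p = 0.0544). Dusp10 did not pass in Vhl OPCs (log2 change -0.12 ± 0.11, adjusted p = 0.367) or in control OPCs (-0.16 ± 0.12, adjusted p = 0.248). Dusp5, although selective for ERK, did not pass either, at -0.12 ± 0.15 in Vhl OPCs (adjusted p = 0.566) and -0.27 ± 0.16 in control OPCs (adjusted p = 0.172).

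**Figure D2:**
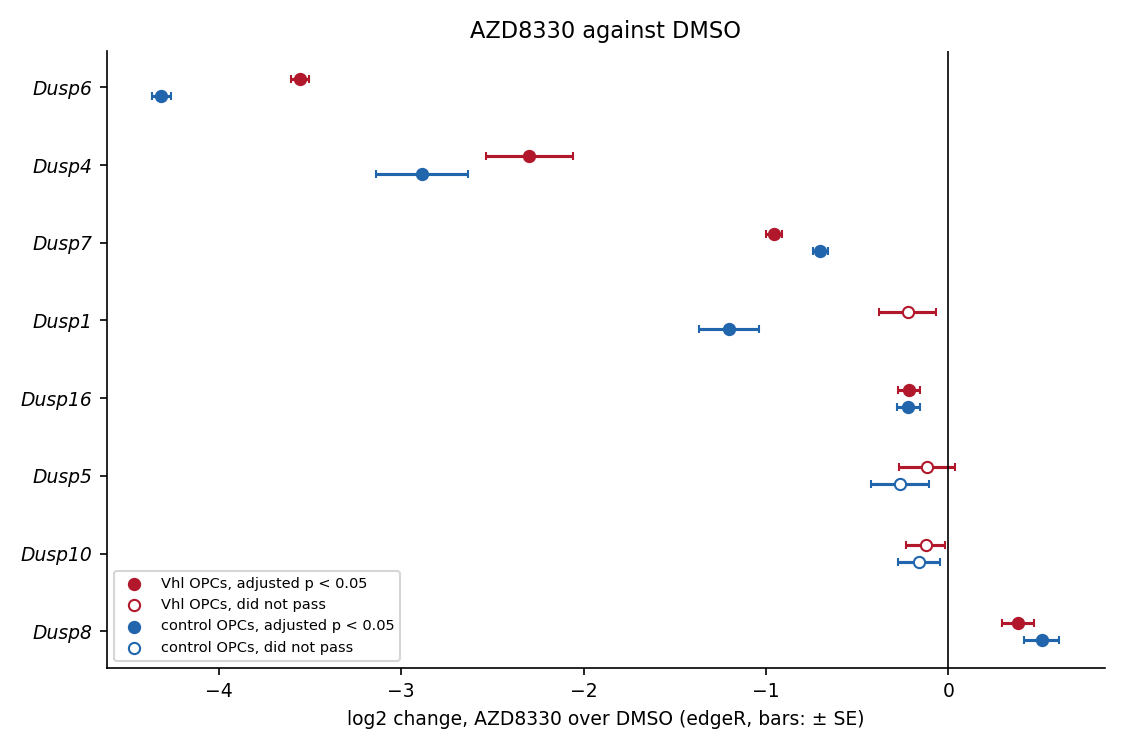
Log2 change with AZD8330 against DMSO for each of the 8 genes, with bars of 1 SE, in Vhl OPCs and control OPCs. Filled points passed an adjusted p of 0.05. Dusp6 (-3.55 in Vhl, -4.31 in control) and Dusp4 (-2.30 in Vhl, -2.88 in control) lie well to the left of the other 6 genes, and Dusp8 alone lies to the right of 0.

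Markers of other cells moved with the inhibitor as well. The summed level of 8 oligodendrocyte maturation markers was 892.4 to 946.2 CPM with AZD8330 and 222.2 to 238.8 CPM with DMSO in Vhl OPCs, and 956.6 to 982.9 CPM with AZD8330 and 197.8 to 205.5 CPM with DMSO in control OPCs. The 7 astrocyte markers summed to 2273 to 2350 CPM with AZD8330 and 1588 to 1633 CPM with DMSO in Vhl OPCs, and to 2371 to 2487 CPM with AZD8330 and 1299 to 1322 CPM with DMSO in control OPCs. The 7 neuron markers summed to 2507 to 2539 CPM with AZD8330 and 1476 to 1612 CPM with DMSO in Vhl OPCs, and to 2117 to 2124 CPM with AZD8330 and 1008 to 1059 CPM with DMSO in control OPCs. No gene of these 3 lists was at 0 in every library of the drug experiment, although Mog reached at most 0.0798 CPM. Gpr17 and Cnp made up most of the maturation sum in control OPCs with AZD8330, at means of 509.5 CPM and 395.6 CPM. The OPC markers summed to 8786 to 8922 CPM with AZD8330 and 8713 to 8886 CPM with DMSO in Vhl OPCs, and to 8174 to 8248 CPM with AZD8330 and 7936 to 8126 CPM with DMSO in control OPCs. The part of these shifts in the phosphatase values was not tested, and in bulk RNA fewer cells of a type and less RNA per cell cannot be told apart.

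The other genes of the pathway were counted in the same way. Among other ERK feedback genes 4 of 7 tested fell and 2 rose in Vhl OPCs, with a median log2 change of -0.89, and 5 fell and 1 rose in control OPCs, with a median of -1.17. Spry4, a Sprouty inhibitor of receptor tyrosine kinase signalling, fell, with log2 changes of -3.01 ± 0.08 in Vhl OPCs (adjusted p = 8.46e-12) and -3.31 ± 0.08 in control OPCs (adjusted p = 3.4e-12). Spry1, of the same family, fell, with log2 changes of -2.52 ± 0.04 in Vhl OPCs (adjusted p = 5.98e-14) and -3.09 ± 0.04 in control OPCs (adjusted p = 1.5e-14). Il17rd, a membrane inhibitor of Fgf signalling, rose by a log2 change of 1.04 ± 0.05 in Vhl OPCs (adjusted p = 4.1e-09) and 1.54 ± 0.05 in control OPCs (adjusted p = 6.84e-11). Among transcription factors and early genes known to be induced by ERK, 6 of 11 tested fell and 3 rose in Vhl OPCs, and 7 fell and 3 rose in control OPCs. Etv4, an ETS factor, fell, with log2 changes of -3.24 ± 0.07 in Vhl OPCs (adjusted p = 2.17e-12) and -3.83 ± 0.08 in control OPCs (adjusted p = 5.2e-13). Etv1, of the same ETS subfamily, rose by a log2 change of 0.88 ± 0.08 in Vhl OPCs (adjusted p = 9e-07) and 0.42 ± 0.08 in control OPCs (adjusted p = 0.000506).

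Of 5 MAP kinase kinases tested, 3 fell in Vhl OPCs and 4 in control OPCs, and none rose in either, with median log2 changes of -0.20 in Vhl OPCs and -0.39 in control OPCs. Map2k2, which encodes MEK2, fell, with log2 changes of -0.20 ± 0.05 in Vhl OPCs (adjusted p = 0.00402) and -0.45 ± 0.05 in control OPCs (adjusted p = 3.35e-06). Map2k1, which encodes MEK1, did not pass in Vhl OPCs (-0.08 ± 0.03, adjusted p = 0.0715) or in control OPCs (0.05 ± 0.03, adjusted p = 0.221). Of 9 MAP kinases tested, 1 fell and 2 rose in Vhl OPCs, and 2 fell and 1 rose in control OPCs. Mapk10, the JNK gene known for its expression in neurons, rose to 90.2 CPM with AZD8330, against 45.2 CPM with DMSO, in Vhl OPCs (adjusted p = 3.34e-07), and to 96.9 CPM with AZD8330, against 29.5 CPM with DMSO, in control OPCs (adjusted p = 1.39e-09). The sum of the neuron markers given above was higher with AZD8330 as well. Map2 made up most of that sum, at means of 1941 CPM in Vhl OPCs and 1739 CPM in control OPCs with AZD8330. Of 6 neuron markers tested, 4 rose in Vhl OPCs and 6 in control OPCs, and none fell. A link of Mapk10 to these markers was not tested. Of 6 RAF kinases and scaffolds tested, 1 rose in Vhl OPCs and 2 in control OPCs, and none fell. Among the atypical dual-specificity phosphatases, relatives that lack the MAP kinase binding domain, 4 of 8 tested rose and none fell in either genotype. Of 6 further genes listed beside the members, Dusp2, Dusp9, Styxl1, Ptpn5, Ptpn7 and Ptprr, none reached the mean of 1 CPM needed for a test in the drug experiment. They summed to at most 5.06 CPM in any library of that experiment.

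**Figure D3:**
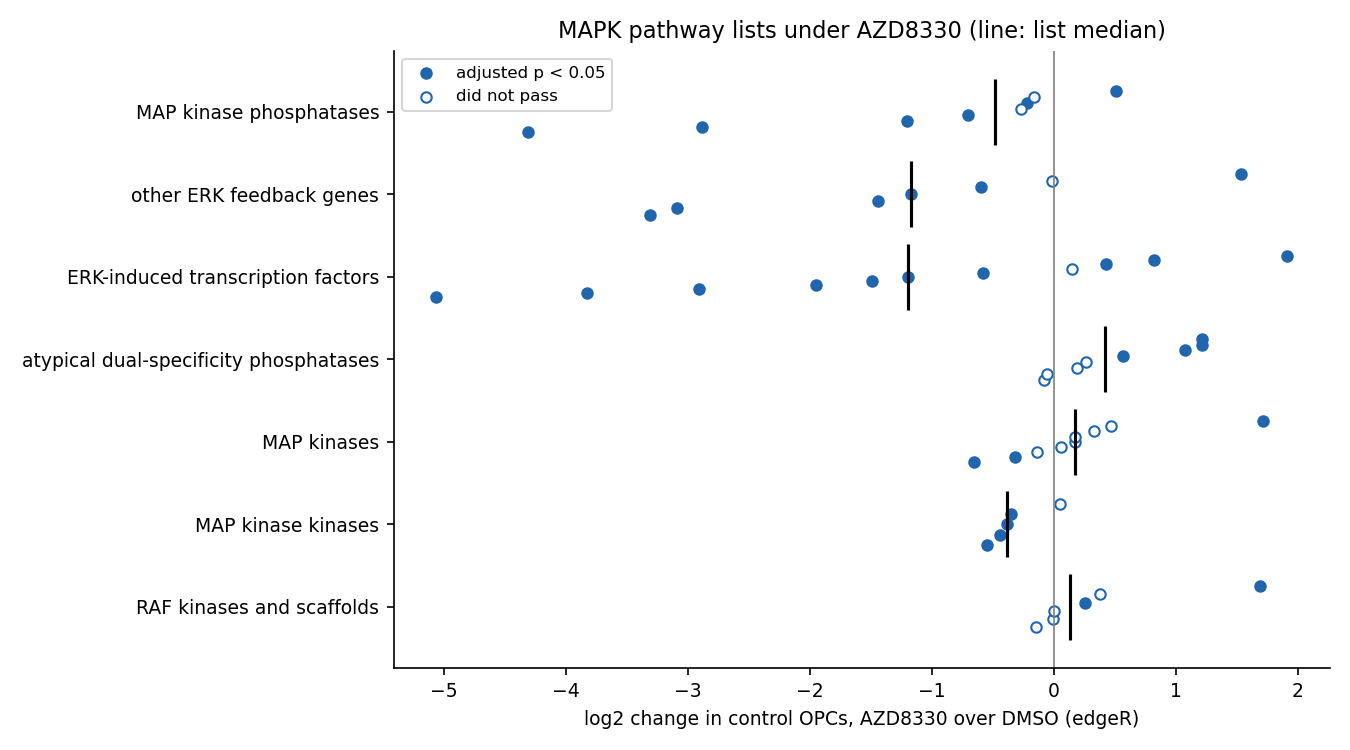
Log2 change with AZD8330 against DMSO in control OPCs for every tested gene of the 8 phosphatase members and the pathway lists, with 1 point per gene, filled where the adjusted p was under 0.05, and a line at the median of each list. The median is -0.48 for the members, -1.17 for other ERK feedback genes and -1.20 for ERK-induced transcription factors, against 0.17 for MAP kinases and 0.42 for atypical dual-specificity phosphatases.

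The second comparison asks whether the response to AZD8330 differed with the Vhl edit, by a test of the difference itself. 3 of the 8 genes differed, 2 with a higher and 1 with a lower log2 change in Vhl OPCs, against 12.8% of all tested genes, 7.81% higher and 4.96% lower. Of all calls in this comparison 61.2% were higher, and 43.8% when libraries were scaled by total counts in place of TMM. Dusp6 had a change 0.76 ± 0.07 higher on the log2 scale in Vhl OPCs (adjusted p = 2.74e-05), which is a smaller fall. Dusp1 had a change 0.98 ± 0.23 higher in Vhl OPCs (adjusted p = 0.0138), and without Vhl AZD8330 library B this was 0.77 and no longer passed (adjusted p = 0.0601). Dusp7 had a change 0.25 ± 0.06 lower in Vhl OPCs, which is a larger fall (log2 difference -0.25, adjusted p = 0.0153), and this call was lost when all genes with any count were tested (adjusted p = 0.173). For Dusp4 the difference of 0.59 ± 0.34 did not pass (adjusted p = 0.315). The differences for Dusp5 (0.15 ± 0.22), Dusp8 (-0.13 ± 0.13), Dusp10 (0.04 ± 0.16) and Dusp16 (0.00 ± 0.09) did not pass, with adjusted p from 0.586 to 0.985. Among the feedback genes Spry1 also had a smaller fall in Vhl OPCs (difference 0.57 ± 0.05, adjusted p = 2.65e-05), whereas for Spry2 the difference was -0.02 ± 0.05 (adjusted p = 0.844).

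The third comparison sets Vhl OPCs against control OPCs under the same treatment. With AZD8330, 6 of the 8 genes rose in Vhl OPCs and 1 fell, against 30.0% of all tested genes changed, 16.0% higher and 14.0% lower. With DMSO, 3 of the 8 rose in Vhl OPCs and 1 fell, against 32.3% of all tested genes changed, 13.8% higher and 18.5% lower. Of all calls with AZD8330 53.3% were higher with TMM scaling and 43.7% with DESeq2 size factors, and of all calls with DMSO 42.6% were higher with TMM scaling and 56.8% with total counts. The median log2 change of the 8 genes was 0.90 with AZD8330 and 0.32 with DMSO, beside 0.01 with AZD8330 and -0.03 with DMSO over all tested genes. Groups did not overlap for 7 of the 8 genes in either treatment, against 43.0% of all genes with AZD8330 and 44.8% with DMSO. These comparisons share libraries with those of the inhibitor, so their values are not independent of the ones above. Of the summed markers given above, those of neurons and OPCs were higher in Vhl than in control OPCs in both treatments, without overlap. Those of astrocytes and of oligodendrocyte maturation were lower in Vhl OPCs with AZD8330 and higher with DMSO, also without overlap. With AZD8330 2 astrocyte markers rose and 3 fell of 7 tested in Vhl OPCs, and of 6 maturation markers tested 2 fell and none rose. With DMSO 2 astrocyte markers rose and 2 fell, and 1 maturation marker rose and 1 fell. The median log2 change with DMSO was 0.37 for the astrocyte list and -0.39 for the maturation list, although both sums were higher. Of 7 OPC markers tested, 5 rose and 1 fell in Vhl OPCs in either treatment. The 1 that fell was Sox10. It averaged 31.1 CPM in Vhl OPCs and 97.5 CPM in control OPCs with AZD8330, and 17.7 and 51.3 CPM with DMSO. Of 6 neuron markers tested, 4 rose and 1 fell with AZD8330, and 3 rose and 0 fell with DMSO. The part of these markers in the results was not tested.

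Dusp8 and Dusp10, phosphatases of JNK and p38, and Dusp5, the nuclear ERK phosphatase, were higher in Vhl OPCs in both treatments. Dusp8 averaged 41.5 ± 1.87 CPM in Vhl OPCs and 17.0 ± 1.59 CPM in control OPCs with AZD8330 (log2 change 1.29 ± 0.09, adjusted p = 3.01e-07). With DMSO it averaged 31.9 ± 1.02 CPM in Vhl OPCs and 11.9 ± 1.24 CPM in control OPCs (1.42 ± 0.09, adjusted p = 2.28e-07). Its 4 groups did not overlap, and ran from Vhl with AZD8330 through Vhl with DMSO and control with AZD8330 to control with DMSO.

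Dusp10 was at 16.9, 19.5 and 17.6 CPM in Vhl libraries and at 6.80, 7.65 and 8.20 CPM in control libraries with AZD8330 (log2 change 1.25 ± 0.11, adjusted p = 2.73e-06). With DMSO it was at 20.2, 18.5 and 20.2 CPM in Vhl libraries and at 7.95, 9.05 and 8.30 CPM in control libraries (1.22 ± 0.11, adjusted p = 4.11e-06). Every Vhl library thus exceeded every control library, and within a genotype the treatments overlapped. Dusp5 was at 16.5, 18.2 and 14.4 CPM in Vhl libraries and at 6.35, 9.48 and 8.99 CPM in control libraries with AZD8330 (0.98 ± 0.16, adjusted p = 0.000392). With DMSO it was at 16.4, 18.0 and 18.7 CPM in Vhl libraries and at 8.65, 10.3 and 10.9 CPM in control libraries (0.83 ± 0.16, adjusted p = 0.0013). As for Dusp10, the genotypes were apart and the treatments overlapped.

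Dusp7 was the one member that fell in Vhl OPCs, with log2 changes of -0.75 ± 0.04 with AZD8330 (adjusted p = 4.39e-08) and -0.50 ± 0.04 with DMSO (adjusted p = 1.57e-06). Dusp1 rose with AZD8330, where it averaged 16.1 ± 2.37 CPM in Vhl OPCs and 6.09 ± 1.21 CPM in control OPCs (log2 change 1.40 ± 0.17, adjusted p = 3.03e-05). With DMSO it averaged 18.8 ± 2.29 CPM in Vhl OPCs and 14.0 ± 0.936 CPM in control OPCs, and the change of 0.43 ± 0.16 missed the threshold (adjusted p = 0.0561). It passed in 7 of 12 fits that left out 1 library and in 3 of 10 other alternatives, among them scaling by total counts (adjusted p = 0.032). Dusp6 had opposite signs in the 2 treatments. With AZD8330 it averaged 32.9 ± 2.16 CPM in Vhl OPCs and 20.9 ± 0.376 CPM in control OPCs (0.65 ± 0.06, adjusted p = 2.81e-06). With DMSO it averaged 384.9 ± 16.4 CPM in Vhl OPCs and 416.2 ± 9.52 CPM in control OPCs (-0.11 ± 0.04, adjusted p = 0.053), and DESeq2 called this small difference (adjusted p = 0.0216).

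Dusp4 rose in Vhl OPCs with AZD8330, at 2.82 ± 1.05 CPM against 1.59 ± 0.370 CPM in control OPCs (log2 change 0.81 ± 0.26, adjusted p = 0.0341). Without Vhl AZD8330 library C the change was 0.44 and did not pass (adjusted p = 0.186), and the call was also lost without control AZD8330 library A (adjusted p = 0.0819) or C (adjusted p = 0.134). With DMSO the change of 0.22 ± 0.22 did not pass (adjusted p = 0.485). Dusp16 did not pass with AZD8330 (0.13 ± 0.06, adjusted p = 0.152) or with DMSO (0.12 ± 0.06, adjusted p = 0.152). Among the other pathway genes, 5 of 7 ERK feedback genes rose and 1 fell in Vhl OPCs with AZD8330, and 3 rose with DMSO. Of the ERK-induced transcription factors, 5 of 11 rose with AZD8330 and 4 with DMSO, and none fell. Myc rose with AZD8330 (158.1 CPM in Vhl OPCs and 85.2 CPM in control OPCs, adjusted p = 1.64e-09). No atypical dual-specificity phosphatase passed with AZD8330 by edgeR, where 2 of 8 had an unadjusted p under 0.05, and 2 rose and 1 fell with DMSO.

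**Figure D4:**
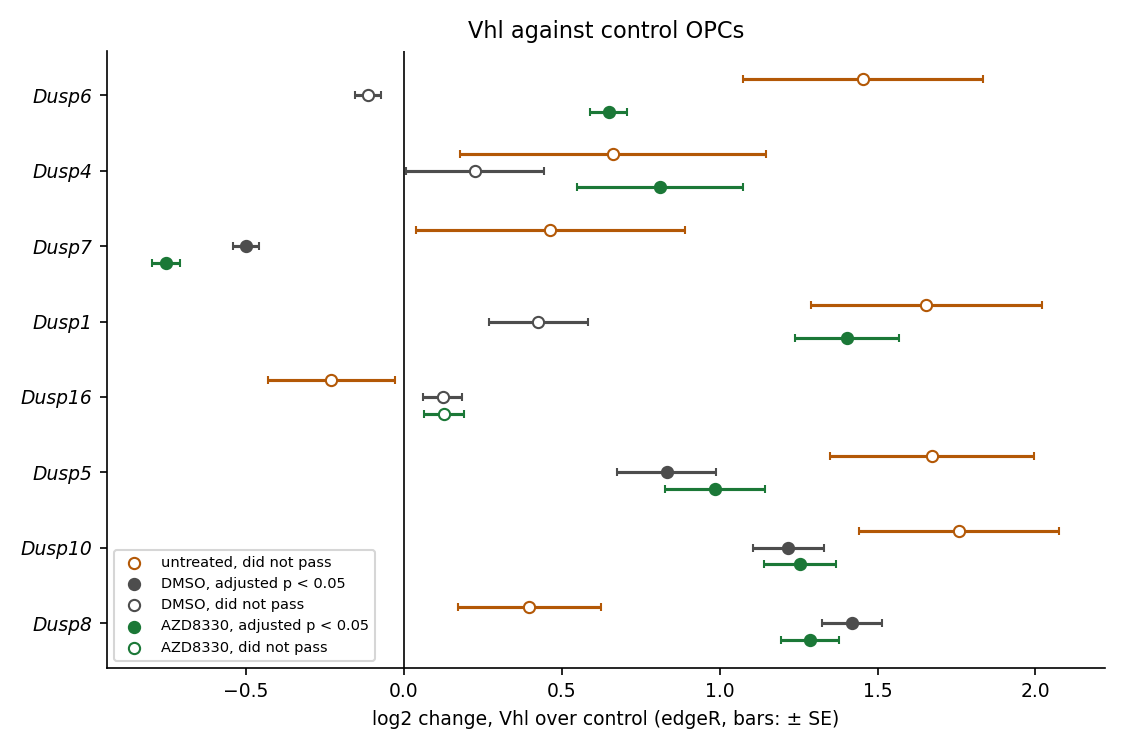
Log2 change in Vhl against control OPCs for each of the 8 genes with AZD8330, with DMSO and untreated, with bars of 1 SE. Filled points passed an adjusted p of 0.05. Dusp1, Dusp4, Dusp5, Dusp8 and Dusp10 lie to the right of 0 in all 3, Dusp7 lies at -0.75 with AZD8330, -0.50 with DMSO and 0.46 untreated, and no untreated change passed.

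In the untreated experiment none of the 8 genes passed the edgeR test, against 0.0147% of 13569 tested genes, although 4 of the 8 and 1266 of all genes had an unadjusted p under 0.05. Groups did not overlap for those 4, Dusp1, Dusp5, Dusp6 and Dusp10, all higher in Vhl OPCs, against 15.8% of all genes. Dusp10 was at 17.0, 22.2 and 35.0 CPM in Vhl libraries and at 7.31, 8.07 and 6.52 CPM in control libraries (log2 change 1.76 ± 0.32, adjusted p = 0.14). Dusp5 was at 19.6, 14.0 and 14.1 CPM in Vhl libraries and at 6.88, 4.20 and 3.91 CPM in control libraries (1.67 ± 0.32, adjusted p = 0.166). Dusp1 was at 40.6, 22.5 and 24.3 CPM in Vhl libraries and at 13.3, 6.69 and 7.83 CPM in control libraries (1.65 ± 0.37, adjusted p = 0.221). For Dusp5 and Dusp1 the A library was the highest of its group in both genotypes, while for Dusp10 it was the lowest in Vhl OPCs.

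Dusp6 was at 224.7, 107.4 and 104.8 CPM in untreated Vhl libraries and at 74.1, 44.0 and 41.4 CPM in untreated control libraries (log2 change 1.45 ± 0.38, adjusted p = 0.288), again with A highest in both groups. Dusp7 was lowest in library A of both groups, at 35.2, 82.1 and 96.7 CPM in Vhl libraries and 31.1, 66.1 and 57.9 CPM in control libraries, and its groups overlapped (0.46 ± 0.43, adjusted p = 0.801). Dusp4 (0.66 ± 0.48), Dusp8 (0.40 ± 0.23) and Dusp16 (-0.23 ± 0.20) overlapped as well, with adjusted p from 0.656 to 0.793. Without both A libraries the same 4 genes passed by edgeR, with adjusted p = 0.0286 for Dusp1, 0.0307 for Dusp5, 0.0178 for Dusp6 and 0.0457 for Dusp10, and DESeq2 on all 6 libraries also called these 4. Calls over all genes were also more numerous, at 4.47% of tested genes without both A libraries (2.91% higher) and 2.63% with DESeq2 (1.82% higher). The oligodendrocyte maturation markers summed to 902.8 to 1094 CPM in untreated Vhl libraries and 1276 to 3997 CPM in untreated control libraries, and their part in the phosphatase values was not tested. Dusp6 made up 34.1% ± 13.1 of the summed phosphatase level in untreated Vhl OPCs and 20.1% ± 3.80 in untreated control OPCs. The sum itself was 418.3 ± 34.3 CPM in untreated Vhl OPCs and 260.2 ± 37.6 CPM in untreated control OPCs.

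**Figure D5:**
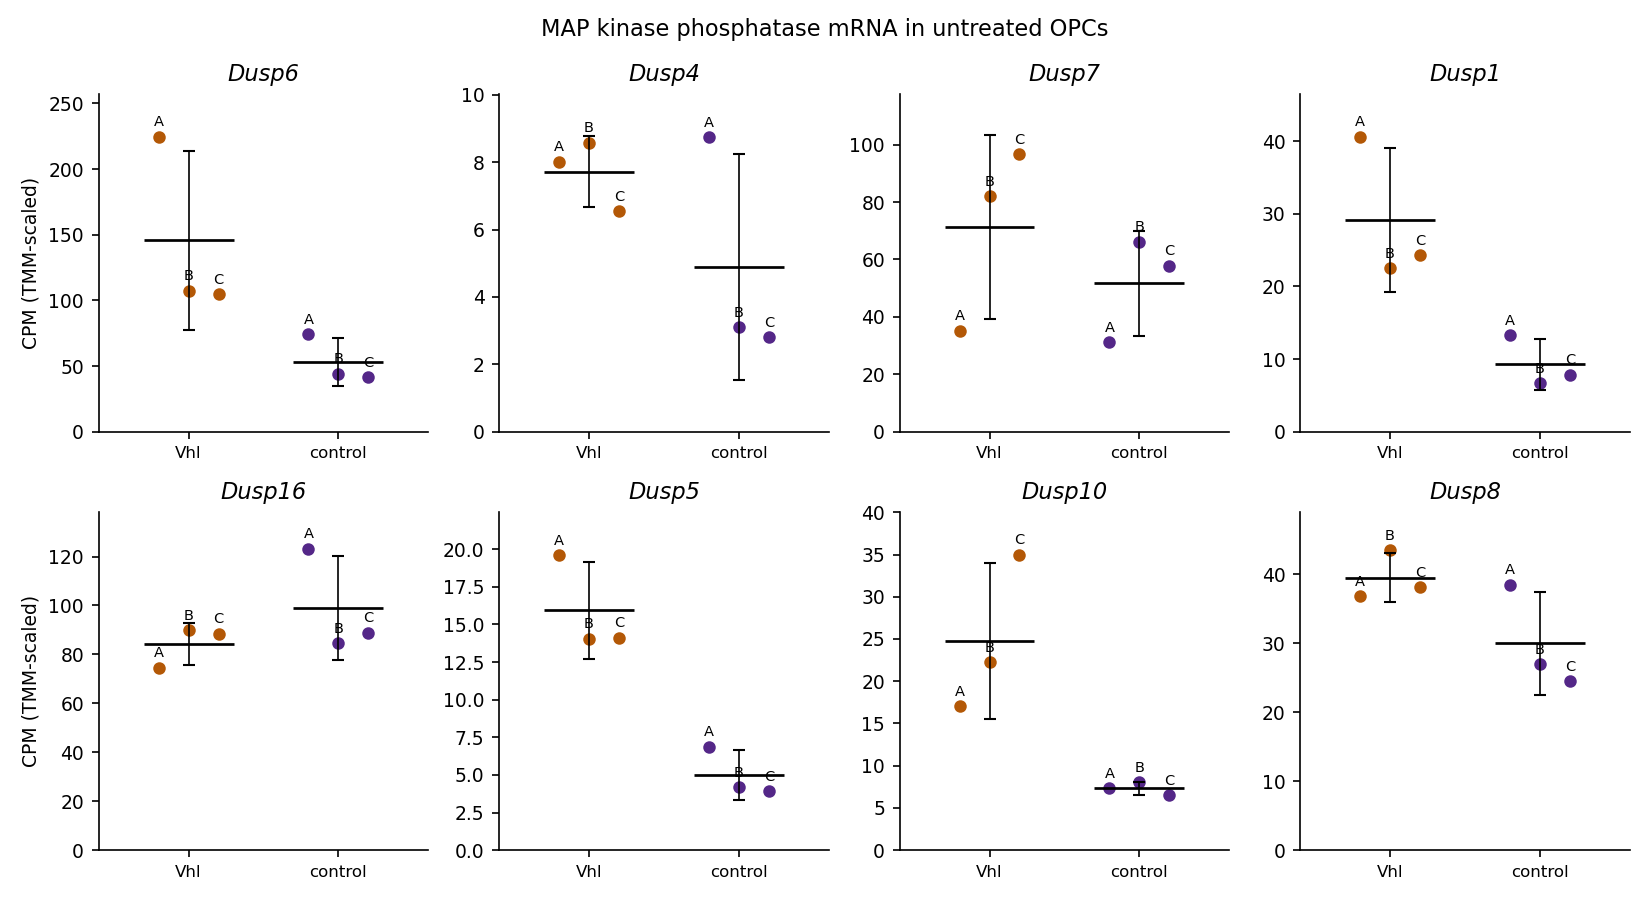
Expression of the 8 genes in the untreated experiment, in CPM on axes that start at 0, with 1 point per library (A, B and C from left to right), a line at the mean of each group of 3 and bars of 1 SD. Dusp6 is highest in library A of both groups (224.7 CPM in Vhl, 74.1 CPM in control) and Dusp7 lowest in library A of both (35.2 CPM in Vhl, 31.1 CPM in control).

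The genes whose pattern over the 4 drug groups was most like that of a member were taken by the root mean square distance between centred group means of log2(CPM + 1), over 12 libraries and 10077 candidate genes, as a description with no test. Etv4 was nearest to Dusp6, at a distance of 0.212, with 24.8 ± 1.46 CPM in Vhl OPCs with AZD8330, 234.7 ± 9.69 CPM in Vhl OPCs with DMSO, 15.9 ± 2.11 CPM in control OPCs with AZD8330 and 226.1 ± 9.53 CPM in control OPCs with DMSO. Ackr4, which encodes an atypical chemokine receptor, was next to Dusp6 at 0.232. Scarb1 (0.0454) and Ccnd1 (0.0831) were nearest to Dusp4, Hrh1 (0.0305) and Rnf217 (0.0591) to Dusp8, and Uhmk1 (0.0504) and Pcolce2 (0.0554) to Dusp7. The 1 added before the logarithm shrinks the fall of Dusp4 most, because it averaged 1.59 CPM in control OPCs with AZD8330. Scarb1 averaged 64.2 CPM there. Ergic3 (0.0588) and Gabpb2 (0.0759) were nearest to Dusp1, Gm3739 and Gm3636 (0.0273 each) to Dusp5, and Gm3591 (0.0806) and Prelid1 (0.0910) to Dusp10. In Vhl OPCs Ergic3 had an SD of 5.17 CPM with AZD8330 and was at 9.97 ± 3.15 CPM with DMSO. In control OPCs it spread less, at 3.23 ± 0.617 CPM with AZD8330 and 7.47 ± 0.810 CPM with DMSO. Uhmk1 spread widely, at 2.33 ± 2.88 CPM in Vhl OPCs with AZD8330 and 7.75 ± 7.91 CPM with DMSO. In control OPCs Uhmk1 was at 3.59 ± 0.964 CPM with AZD8330 and 6.995 ± 5.03 CPM with DMSO. With DMSO mean Uhmk1 was higher in Vhl OPCs, while Dusp7 was lower there (65.5 CPM, against 92.7 CPM in control OPCs). The 4 group means of Dusp16 spanned 0.34 log2 units, under the span of 1 set for this search.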

How the data were processed

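RNA of 18 libraries was sequenced by Novogene after TRIzol extraction, per the labels' protocols. Per the submitters' processing notes, Salmon 0.14.1 and the mouse build mm10 were used; the step from transcripts to genes is not described there. Both tables that the authors deposited are named as TPM but hold estimated counts: column totals differ between libraries, and 58.8% (drug) and 57.7% (untreated) of values above 0 are whole within 0.001. They were rounded, and genes averaging 1 CPM or more were tested (13460 in the drug table, 13569 in the untreated table) with TMM scaling and the quasi-likelihood test of edgeR 4.0.16 in R 4.3.3. The 4 drug groups shared a single fit, from which 5 comparisons came, and the 2 untreated groups another. P-values were adjusted by Benjamini-Hochberg over all tested genes, with a threshold of 0.05. Counts limit precision: a gene with few estimated counts has wide error, and the p-values cover the spread between libraries only.

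All 8 members are named in every comparison; genes of the 15 lists are counted, and those named serve as examples. For each member whose 4 group means span at least 1 log2 unit, the 2 nearest genes averaging 5 CPM or more are named. The members and lists were chosen with earlier results of these data known. Levels per kilobase used union exon length in GENCODE M21, which holds 98.37% of row names. Dates stand in place of symbols in 26 rows of either file, and these are not named. The 2 mean columns that the authors deposited entered no comparison. The labels do not say that a letter marks a shared culture or day, and over all tested genes same-letter libraries did not deviate together, so letters were not treated as pairs. Alternatives used DESeq2 1.42.0, limma 3.58.1, other scalings and filters, a replicate block and left-out libraries. Figures were drawn with matplotlib 3.10.9.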

Additional observations from a re-analysis of the deposited data

Results flagged for a closer look

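The effect of AZD8330 differed between Vhl and control OPCs, by the edgeR test of the difference itself, for 3 of the 8 genes. Of all tested genes 12.8% differed. Dusp6 had a log2 change 0.76 higher in Vhl OPCs (adjusted p = 2.74e-05). Dusp1 had a log2 change 0.98 higher in Vhl OPCs (adjusted p = 0.0138), a call lost without Vhl AZD8330 library B (adjusted p = 0.0601). Dusp7 had a difference of -0.25, a larger fall in Vhl OPCs (adjusted p = 0.0153). That call was lost when all genes with any count were tested (adjusted p = 0.173).

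Dusp6 also moved in opposite directions with the Vhl edit in untreated OPCs and in OPCs with DMSO, with no overlap between groups in either. With AZD8330 it was higher in Vhl OPCs, as in untreated OPCs (log2 change 0.65, adjusted p = 2.81e-06, edgeR). Its log2 change in Vhl against control OPCs was 1.45 untreated (adjusted p = 0.288) and -0.11 with DMSO (adjusted p = 0.053), by edgeR. Neither passed the threshold, the experiments were fitted separately, and the difference was not tested. Groups of 3 libraries are too small for the check for a single far library.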

How the results depend on the processing

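Over 48 member results, 961 of 1000 alternative values kept their side of the threshold, 29 newly passed and 10 no longer passed; 37 results kept their side under every alternative. No value that passed changed sign; 23 values that passed under neither setting did, in 4 results: the difference of effects for Dusp5, Dusp10 and Dusp16, and untreated Dusp16, at 0.04 without both A libraries. In the 5 drug comparisons no alternative moved the count of members called by over 1.5 times. In the untreated experiment, where edgeR called 0 members, DESeq2 called 4, testing genes without a filter 1 and leaving out both A libraries 4; leaving out 1 library gave 0 to 1, the 1 being Dusp10 without Vhl A. Over all genes that experiment gave 2 calls, 355 with DESeq2, 4 with limma, 143 without a filter, 439 without Vhl A, 606 without both A libraries, and 0 with the replicate block or without control A, B or C or Vhl B. The cause was not tested.

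Same-letter libraries did not deviate together over all tested genes, although the untreated A libraries of both genotypes stood apart for several genes: same-letter correlations of deviations lay between -0.0442 and 0.0527 in the drug experiment and between -0.0809 and 0.0204 in the untreated one. With the letter as a replicate block, members called were 5 (AZD8330 in Vhl OPCs), 6 (AZD8330 in control OPCs), 3 (difference), 6 (Vhl with AZD8330), 4 (Vhl with DMSO) and 0 (untreated). Calls over all genes were counted for the alternatives other than leaving out 1 library, the block among them. They numbered 6196 to 7082 (AZD8330 in Vhl OPCs) and 7082 to 8398 (AZD8330 in control OPCs). They numbered 1552 to 1813 (difference), 3797 to 4119 (Vhl with AZD8330) and 3818 to 4509 (Vhl with DMSO). The block ended the call of Dusp4 in Vhl OPCs with AZD8330 (adjusted p = 0.0578), as did limma on log2(CPM + 1) (0.0512) and fitting only the 2 groups compared (0.138). In Vhl against control OPCs with DMSO, Dusp6 passed with DESeq2 size factors (0.0309), without a filter (0.0358) and, in an alternative chosen after seeing the data, with TMM over all rows (0.0244). Dusp1 passed there with a mean of at least 5 CPM (0.0308), and Dusp16 with total counts (0.0393). Depth limits Dusp4 most, at 17 to 55 estimated counts per library with AZD8330.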

Other observations

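The untreated table also holds 2 columns of group means made by the authors. In the authors' deposited table the column named Control equals the mean of the 3 control libraries in 100% of 54279 rows, within 0.001. The column named VHL in the authors' deposited table equals the mean of control B, control C and Vhl A in 100% of rows, and the mean of the 3 Vhl libraries in 51.6%. For Dusp6 the authors' deposited table gives 2092 estimated counts in the VHL column, where the mean of Vhl A, B and C is 2728. For Dusp10 the authors' deposited table gives 204.3 in that column, where the mean of the 3 Vhl libraries is 422.3.

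Dusp2, an early-induced nuclear phosphatase, was below the level needed for a test in the drug experiment. It had 4, 6 and 1 estimated counts in Vhl libraries with AZD8330 and 7, 17 and 5 with DMSO. In control libraries it had 2, 2 and 5 with AZD8330 and 10, 25 and 23 with DMSO.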
